A study of Drosophila melanogaster with 21 samples.

Results

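The genes described here are the Cpr genes of Drosophila melanogaster, a family named for cuticle proteins with the Rebers-Riddiford motif. They were chosen by name alone: every gene of the brain and ovary tables whose name starts with Cpr and a digit, which gave 70 of 13955 genes. Of these 70, 29 had at least 1 transcript in the table of S2 cells. The other 41 had no row there, and that table held no row without a count. By chromosome arm, 35 lay on 3L, 21 on 2R, 5 each on 2L and 3R and 4 on X, and 49 shared their cytological position with at least 1 other member.

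The insect cuticle is an extracellular layer of chitin fibres and proteins that epithelial cells secrete at their apical surface. The Rebers-Riddiford motif binds chitin, and proteins of this family are among the proteins of that layer. Epidermis, trachea, foregut and hindgut are among the tissues that make cuticle, and the corneal lens of the eye is itself cuticle. Brain tissue and the germ line do not make it.

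The series tested the loss of CG11247 (Saft), a zinc-finger protein gene, in adult females and in S2 cells, an embryo-derived fly line. Brain groups were wild type, mutant 1 and mutant 2, with 2 libraries each of 40 pooled brains, and ovary groups were the same genotypes, with 3 libraries each of 5 ovary pairs, from mated females 3 to 4 days old. Wild type was the isogenised white parent strain of both mutants, which carry frame shifts from a 1 bp deletion in exon 1 (mutant 1) or a 2 bp deletion in exon 2 (mutant 2). Cell groups (2 libraries each) were clone 9C, which expresses OsTir1 and carries a FLAG-AID tag on both copies of CG11247, with solvent only or with 500 µM auxin for 24 h or 48 h. The labels write both mutant stocks over the balancer TM3,Sb, and no source used here says if the females taken for dissection were homozygous. Auxin-treated cells without the tag were not among the samples. The replicates are called biological, but it is not said that each came from its own culture or dissection, so the p-values cover only the spread among these libraries, which may be technical.

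The alleles are printed as the labels give them, because every tissue comparison rests on them. CG11247 lies on arm 3L, and the capitals are the 3 bases on each side of the deleted ones.
mutant 1: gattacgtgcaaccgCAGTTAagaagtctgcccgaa
mutant 2: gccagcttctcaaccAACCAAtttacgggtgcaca

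Libraries held 39.0 to 45.6 M counts in brain, 14.1 to 21.5 M in ovary and 6.4 to 9.1 M in S2 cells. The mRNA of CG11247 was lower than in wild type in mutant 1 ovary (30.1 ± 0.733 against 62.8 ± 4.08 CPM; SD, n = 3) and at 72.6 ± 2.27 CPM in mutant 2 ovary. By edgeR it was called lower in mutant 1 (adjusted p = 0.0039 in brain and 1.3e-07 in ovary) and higher in mutant 2 (0.030 and 0.035). In brain it was at 87.8 ± 2.68 CPM in wild type, 65.9 ± 0.713 in mutant 1 and 107 ± 4.50 in mutant 2 and in S2 cells at 19.8 ± 2.14 untreated, 25.5 ± 3.20 at 24 h and 26.8 ± 2.51 at 48 h (SD, n = 2), and a frame shift or a protein degron need not change an mRNA. In brain, wild-type library 1 and mutant 1 library 1 stood apart by photoreceptor markers, with 307 and 412 CPM of the rhodopsin gene ninaE against 34.4 to 83.7 in the other 4. In ovary, wild-type library 2, mutant 1 library 1 and mutant 2 library 3 stood apart from the other 6 on the second principal component. Neuronal markers summed to 6360 to 7143 CPM in brain and germ-line markers to 2617 to 2897 CPM in ovary. The brain libraries also held fat body markers, mainly the yolk protein genes Yp1, Yp2 and Yp3, which summed to 18325 to 24114 CPM in the wild-type libraries, 14568 to 17846 in those of mutant 1 and 15158 to 16868 in those of mutant 2, above the neuronal sum.

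In each tissue most members were silent. Levels are CPM, the count divided by the TMM-scaled library size in M, and a member is called silent here when its mean was under 0.1 CPM in every group. By that measure 46 of the 70 were silent in brain and 46 in ovary, 36 in both tissues, and 32 in brain, ovary and S2 cells together. In S2 cells 3 counts in a group correspond to 0.185 to 0.209 CPM, so single reads there can pass the limit. Cpr30F, Cpr49Ab and Cpr47Eg were silent in both tissues and are left out of the 32 on 2, 2 and 3 S2 counts. No count at all was found for 15 members in brain and for 21 in ovary. Of all 13955 genes, 1166 had no count in brain and 1979 in ovary, before estimated counts were rounded. The share of all genes under 0.1 CPM was not computed, so the silent counts are not set against it. Summed over all libraries of a tissue, a count of 0 allows up to 0.0117 CPM in brain and 0.0188 CPM in ovary, counting error only. Cpr47Ed, Cpr49Ad, Cpr65Av, Cpr65Aw, Cpr65Ax2, Cpr67Fa1, Cpr67Fa2 and Cpr76Ba had 0 counts in both tissues and no row in S2 cells.

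Of the 32 members silent in all 3 tables, 24 shared their position with another member, as did 49 of all 70. At position 65A, 6 of 7 members were silent in all 3 tables, and at 67F all 3 were. At 76B, 3 of 4 were silent, at 72E 2 of 3, at 65E 2 of 3, at 47E 3 of 7, at 49A 3 of 8, at 78C 1 of 3 and at 64A 1 of 4. No member at 62B, 50C or 97E was silent by that limit. The other 8 silent members were alone at their position, among them Cpr5C, Cpr12A and Cpr31A. The silent member with the most tissue counts, Cpr76Bd, had 20 in all 15 tissue libraries. Cpr65Ax1 and Cpr65Ax2, and Cpr67Fa1 and Cpr67Fa2, are near-identical pairs whose reads counting could split. Cpr65Ax1 had 1 count in all and the other 3 had none.

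**Figure D1:**
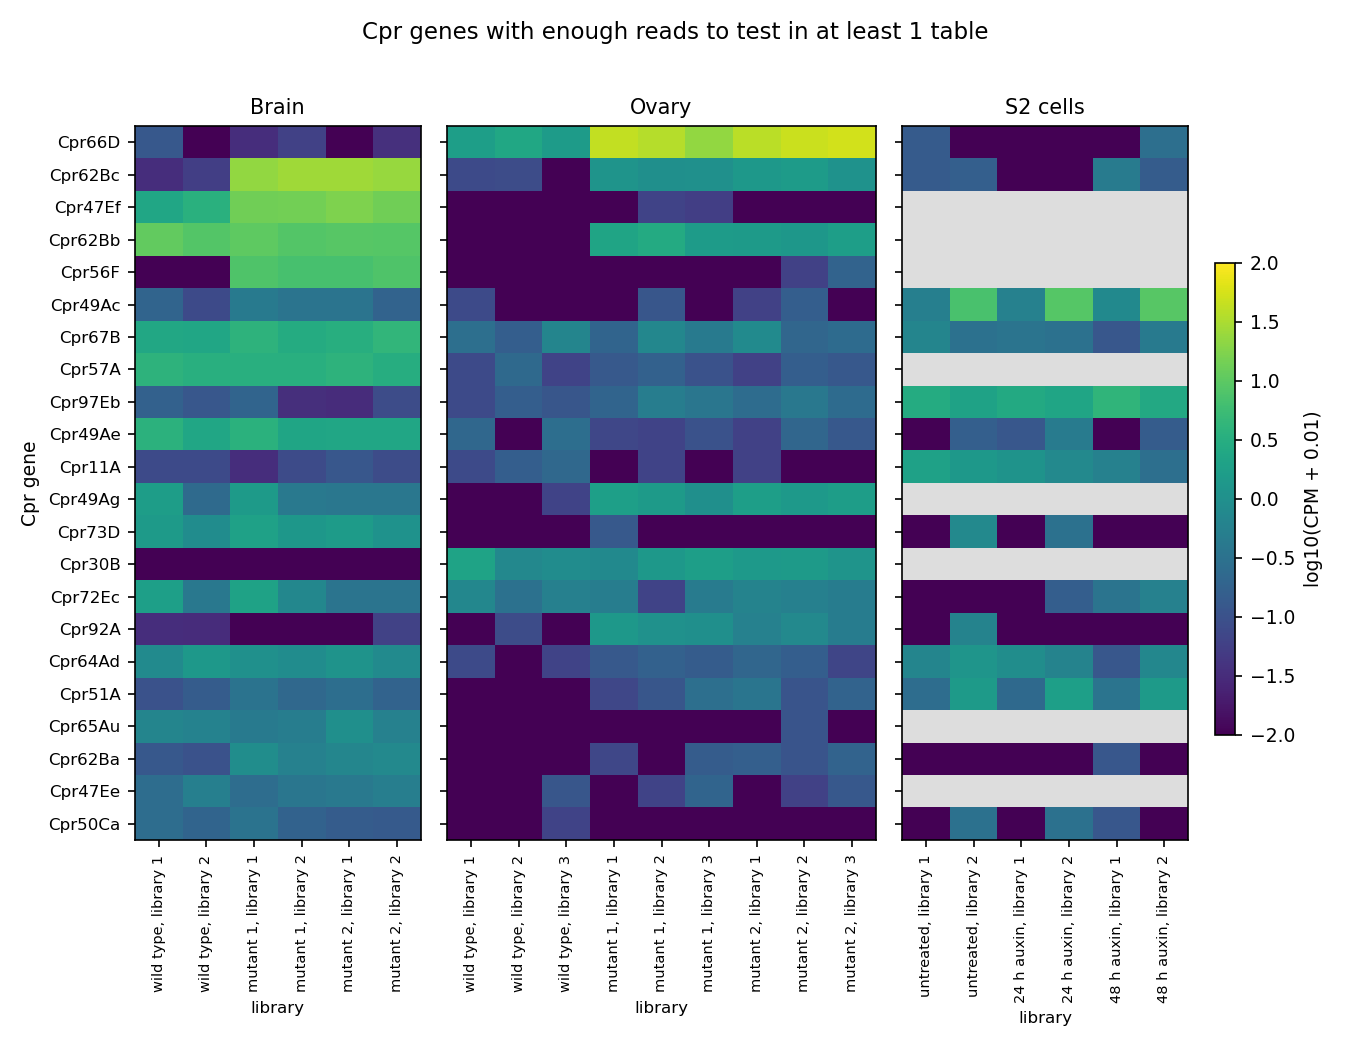
Level of the 22 Cpr genes with enough reads to be tested in at least 1 table, as log10(CPM + 0.01), in each of the 21 libraries, with genes ordered by their highest group mean and grey for genes without a row in S2 cells. Cpr62Bc and Cpr56F are dark in wild-type brain and bright in the 4 mutant brain libraries, and Cpr66D is brightest in the 6 mutant ovary libraries.

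Few members reached 1 CPM. In brain 10 did in at least 1 group, in ovary 6 and in S2 cells 4. Between genes, levels are compared per kb of exon. In wild-type brain the highest was Cpr62Bb, with 9.87 ± 1.80 CPM per kb (SD, n = 2). Cpr49Ae (2.51 ± 0.814), Cpr57A (2.40 ± 0.196) and Cpr67B (2.39 ± 0.160) followed, and these 3 did not differ beyond their spread. Below them, Cpr49Ag (1.48 ± 1.59), Cpr47Ef (1.29 ± 0.352), Cpr65Au (1.18 ± 0.0775) and Cpr64Ad (1.13 ± 0.407) also lay within their spread of each other. All exon sequence of Cpr57A is shared with Obp57d, an odorant-binding protein gene on the same strand, so its value is uncertain, as is that of Cpr65Au, which shares 491 exon bp with an antisense RNA gene. Wild-type ovary had a lower set, led by Cpr66D (1.73 ± 0.418 CPM per kb; SD, n = 3) and Cpr30B (1.72 ± 1.03), which did not differ beyond their spread.

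The summed level of the 70 genes was higher in both mutants than in wild type, a description with no test. In brain the sum was 32.7 and 25.8 CPM in the wild-type libraries, 75.8 and 72.1 in mutant 1 and 76.1 and 71.0 in mutant 2. Wild-type ovary had sums of 6.06, 4.87 and 4.94 CPM, mutant 1 ovary 53.7, 47.1 and 33.1 and mutant 2 ovary 49.4, 58.4 and 62.6. No mutant library overlapped with wild type in either tissue, and the members described next held most of the sum in the mutants. In S2 cells the sums were 7.87 and 15.8 CPM untreated, 7.79 and 17.3 at 24 h and 7.42 and 17.3 at 48 h, so groups overlapped. In such bulk samples, more cells that express a gene and more RNA per cell cannot be told apart.

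In brain, 4 members were higher than wild type in both mutants and 0 lower, by edgeR's quasi-likelihood test at a Benjamini-Hochberg adjusted p under 0.05 over all tested genes. They were Cpr62Bc, Cpr56F, Cpr47Ef and Cpr62Ba. Over all 9880 genes tested in brain, 1.9% were called higher in mutant 1 and 2.23% in mutant 2, 0.759% and 0.729% lower, and 2.66% and 2.96% in either direction. The filter on low counts left 17 of the 70 members to test. Cpr62Bc, Cpr56F and Cpr62Ba passed it through the mutant libraries alone, so the share called among the tested members is no measure of the family. Both mutants were compared with the same wild-type libraries, and their values are given side by side.

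Cpr62Bc (FBgn0035281) lies on 3L at 1840281 to 1842084 on the minus strand (build BDGP6). It had 1 and 2 counts in the wild-type brain libraries, 973 and 1125 in mutant 1 and 1197 and 946 in mutant 2. All 4 mutant libraries were far above both wild-type ones. The ratio of summed, depth-scaled counts was 721 for mutant 1 (95% exact counting interval 246 to 3500.3) and 739 for mutant 2 (252 to 3585), with edgeR adjusted p = 3.8e-08 and 4.1e-08. In mutant brain Cpr62Bc was the member with the highest level, at 21.9 ± 2.84 and 22.4 ± 1.67 CPM per kb (SD, n = 2 per mutant).

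Cpr56F (FBgn0034499) lies on 2R at 20288371 to 20291945 on the minus strand, and no gene shares its exons. It had 0 counts in both wild-type brain libraries, 342 and 285 in mutant 1 and 305 and 315 in mutant 2. Set against 3 counts over the wild-type group, mutant 1 was 216-fold higher and mutant 2 214-fold higher (edgeR adjusted p = 1.6e-06 for both). In ovary it had 0 counts in wild type and mutant 1, and 0, 1 and 3 in mutant 2, which was too few to test there.

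Cpr47Ef (FBgn0033603), on 2R at 11266915 to 11272575 on the minus strand, was already present in wild type. Its counts were 99 and 149 in wild-type brain, 589 and 585 in mutant 1 and 746 and 539 in mutant 2. Every mutant library was above both wild-type ones, with log2 changes of 2.29 ± 0.18 (SE; edgeR adjusted p = 3.6e-04) and 2.41 ± 0.18 (2.6e-04). Of the other 6 members at 47E, only Cpr47Ee had enough brain reads to be tested, and it did not pass (log2 -0.34 ± 0.45 and 0.22 ± 0.43, edgeR adjusted p = 0.962 and 0.924). Cpr47Ee ends 59 bp from Cpr47Ef.

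Cpr62Ba (FBgn0035279), on 3L at 1824129 to 1831783 on the minus strand, was the lowest of the called members. It had 5 and 4 counts in wild-type brain, 39 and 23 in mutant 1 and 30 and 30 in mutant 2. The groups did not overlap, and the log2 changes were 2.79 ± 0.44 (edgeR adjusted p = 0.0090) and 2.75 ± 0.44 (0.0097). The call was lost without single libraries: for mutant 1 the edgeR adjusted p was 0.0615 and 0.0984 with wild-type library 1 or 2 left out, and 0.0820 with mutant 1 library 1 left out. For mutant 2 it was 0.0647 and 0.104 with wild-type library 1 or 2 left out.

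**Figure D2:**
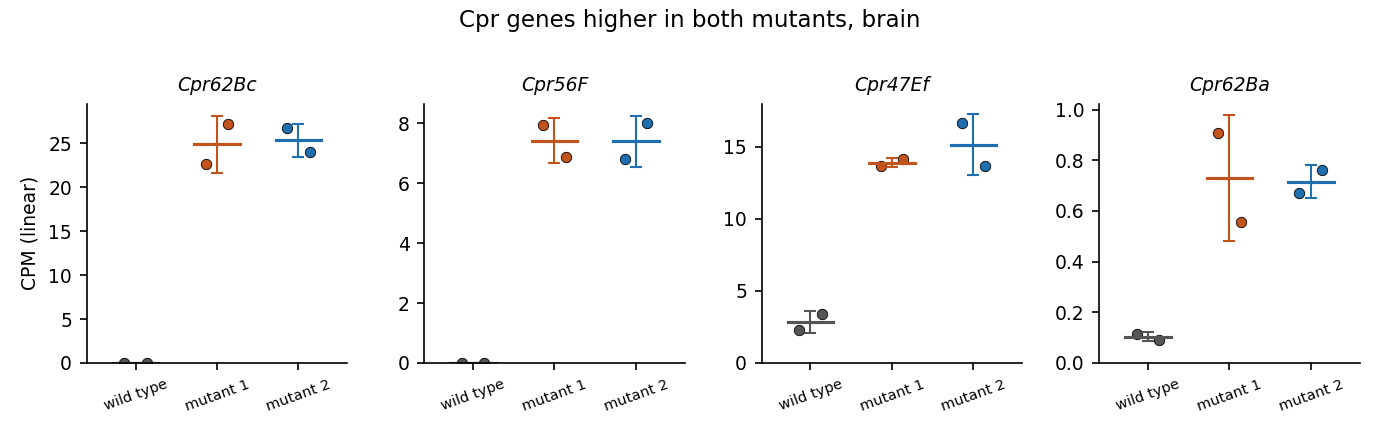
CPM on a linear axis from 0 of the 4 Cpr genes higher in both mutant brains, with a point for each library, a bar for the group mean and whiskers for the SD (n = 2). In each panel both libraries of mutant 1 and of mutant 2 lie above both wild-type libraries, and Cpr62Bc reaches the highest mean, 25.4 CPM in mutant 2.

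The gene between Cpr62Ba and Cpr62Bc did not follow them in brain. Cpr62Bb (FBgn0035280), at 1832636 to 1835164 on the same strand of 3L, is 853 bp from Cpr62Ba and 5117 bp from Cpr62Bc. Its brain counts were 477 and 375 in wild type, 432 and 351 in mutant 1 and 414 and 352 in mutant 2. These groups overlapped, and the log2 changes were -0.08 ± 0.14 and -0.11 ± 0.14 (edgeR adjusted p = 0.981 and 0.863). GV1, the coding gene 1226 bp beyond Cpr62Ba, was higher in both mutants (log2 0.87 and 0.97, edgeR adjusted p = 0.0126 and 0.0066). CNMa, 8831 bp beyond Cpr62Bc, was not called in brain (0.24 and 0.04, edgeR adjusted p = 0.937 and 0.982).

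The remaining brain members at 1 CPM or more were not called in either mutant. Cpr57A had 163 and 148 counts in wild type, 145 and 140 in mutant 1 and 172 and 120 in mutant 2, values that its overlap with Obp57d makes uncertain. Cpr49Ae had 158 and 101 counts in wild type, 154 and 92 in mutant 1 and 103 and 91 in mutant 2. Cpr64Ad had 35 and 60, 44 and 36, and 50 and 32. In all 3 genes the groups overlapped. Cpr67B had 109 and 101 counts in wild type, 163 and 119 in mutant 1 and 142 and 167 in mutant 2. All 4 mutant libraries of Cpr67B were above wild type also per depth, but its log2 changes of 0.47 ± 0.20 and 0.62 ± 0.20 did not pass (edgeR adjusted p = 0.524 and 0.227). Cpr73D had 65 and 39 counts in wild type, 82 and 53 in mutant 1 and 69 and 42 in mutant 2, and it shares 294 exon bp with Ogdh on the opposite strand. Its groups overlapped, with log2 changes of 0.41 ± 0.33 and 0.13 ± 0.33 (edgeR adjusted p = 0.861 and 0.948). Cpr49Ac, with log2 changes of 1.56 ± 0.57 and 1.02 ± 0.60, and Cpr51A, with 1.22 ± 0.54 and 0.95 ± 0.55, did not pass either (edgeR adjusted p 0.364 to 0.616).

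Cpr72Ec, whose protein is known from the Drosophila corneal lens, and Cpr49Ag differed widely between the brain libraries of wild type and of mutant 1. Cpr72Ec had 77 and 17 counts in wild type, 85 and 29 in mutant 1 and 15 and 13 in mutant 2. Cpr49Ag had 73 and 10, 64 and 17, and 17 and 15. Both mutant 2 libraries of Cpr72Ec lay below the other 4 per depth (0.330 and 0.335 CPM against 0.387 to 1.98), and those of Cpr49Ag lay within the wild-type range. In both genes the high libraries were wild-type library 1 and mutant 1 library 1, the same ones that were high in photoreceptor markers (592 and 746 CPM summed over 4 markers, against 190 to 265 in the other 4). The part of this in the values of both genes was not tested. No change passed (edgeR adjusted p 0.642 to 0.999). Without these libraries the same 4 members were called higher in each mutant.

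In ovary, 5 members were higher than wild type in both mutants and 0 lower: Cpr66D, Cpr62Bb, Cpr62Bc, Cpr49Ag and Cpr92A. Over all 8312 genes tested in ovary, 12.2% were called higher in mutant 1 and 8.77% in mutant 2, 11.2% and 7.35% lower, and 23.5% and 16.1% in either direction. Only 8 members passed the filter, and all of the called ones but Cpr66D passed it through the mutant libraries alone. The same 5 members were called without the 3 ovary libraries that stood apart. As in brain, both mutants share their wild-type libraries. Of 6 nearest coding genes beside the called members, 3 were tested. CNMa, 8831 bp beyond Cpr62Bc, was lower in both mutants (log2 -1.20 and -1.16, edgeR adjusted p = 0.0174 and 0.0273). Zasp66, 1626 bp from Cpr66D, was not called in mutant 1 (0.50, edgeR adjusted p = 0.0660) and was higher in mutant 2 (0.74, 0.0202). Dys, 214 bp from Cpr92A, was not called in either (0.07 and 0.04, edgeR adjusted p = 0.381 and 0.621).

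Cpr66D (FBgn0052029), another gene whose protein is known from the corneal lens, lies on 3L at 8640439 to 8643584 on the plus strand. It had 25, 33 and 29 counts in the wild-type ovary libraries, 715, 651 and 493 in mutant 1 and 760, 964 and 893 in mutant 2. Every mutant library, at 22.6 to 52.8 CPM, was far above every wild-type one, at 1.57 to 2.44 CPM. The log2 changes were 4.16 ± 0.33 (edgeR adjusted p = 8.5e-05) and 4.61 ± 0.33 (3.7e-05). At 30.7 ± 9.60 and 41.9 ± 6.68 CPM per kb (SD, n = 3), it was the highest member of mutant ovary. Mutant 2 did not pass against mutant 1 (log2 0.45 ± 0.23, edgeR adjusted p = 1.00).

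Cpr62Bb, which was high in all brain groups, was at 0 in each wild-type ovary library. Its counts were 36, 50 and 34 in mutant 1 and 30, 26 and 29 in mutant 2. Set against 3 counts over the wild-type group, mutant 1 was 32.9-fold higher and mutant 2 23.1-fold higher (edgeR adjusted p = 1.9e-05 and 4.2e-05). In mutant ovary it reached 2.18 ± 0.592 and 1.52 ± 0.217 CPM per kb (SD, n = 3), below its level in brain.

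Cpr62Bc had 1, 1 and 0 counts in wild-type ovary, 19, 18 and 22 in mutant 1 and 27, 32 and 18 in mutant 2. No mutant library reached down to wild type, and the ratios of summed counts were 24.3 (counting interval 6.43 to 205) and 31.4 (8.40 to 264), with edgeR adjusted p = 1.7e-04 and 6.7e-05. Cpr62Ba, the third gene of the cluster, had 0 counts in wild-type ovary, 1, 0 and 3 in mutant 1 and 3, 2 and 3 in mutant 2. It was too low to be tested in ovary. Its highest ovary group mean was 0.142 CPM.

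Cpr49Ag (FBgn0033730), on 2R at 12407793 to 12408523 on the plus strand, had 0, 0 and 1 counts in wild-type ovary, 30, 27 and 21 in mutant 1 and 34, 29 and 28 in mutant 2. The groups were far apart, with ratios of 64.2 (counting interval 11.2 to 2567) and 74.2 (13.0 to 2963) and edgeR adjusted p = 5.3e-05 and 3.5e-05. Cpr92A (FBgn0038714), on 3R at 19597502 to 19598955 on the minus strand, had 0, 1 and 0 counts in wild type, 22, 19 and 21 in mutant 1 and 11, 15 and 8 in mutant 2. Both mutants were above wild type, by ratios of 51.0 (counting interval 8.82 to 2047) and 27.7 (4.65 to 1127), with edgeR adjusted p = 1.6e-04 and 0.0013. Counts of Cpr92A were lower in all mutant 2 libraries than in all mutant 1 ones, but this difference did not pass (log2 -0.90 ± 0.38, edgeR adjusted p = 1.00).

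**Figure D3:**
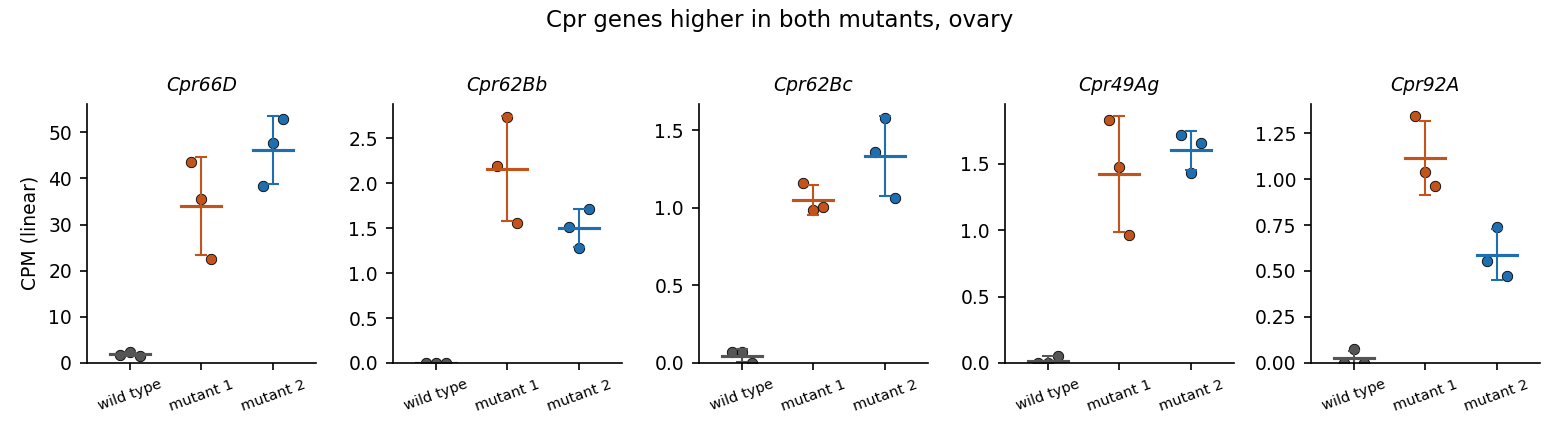
CPM on a linear axis from 0 of the 5 Cpr genes higher in both mutant ovaries, with a point for each library, a bar for the group mean and whiskers for the SD (n = 3). In each panel every library of mutant 1 and of mutant 2 lies above every wild-type library, and Cpr66D reaches the highest mean, 46.2 CPM in mutant 2.

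The other tested ovary members did not pass. Cpr30B had 30, 10 and 16 counts in wild type, 13, 25 and 38 in mutant 1 and 29, 30 and 20 in mutant 2. Cpr72Ec had 10, 4 and 10, then 8, 1 and 10, and 12, 11 and 8, and Cpr67B had 4, 2 and 12, then 3, 13 and 9, and 16, 4 and 4. In all 3 genes the groups overlapped (edgeR adjusted p 0.451 to 0.931). Cpr30B was the reverse of most members in where it was found, with 0 counts in all 6 brain libraries and 211 in ovary.

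Several members too low for the filter had counts in mutant ovary and next to none in wild type. Cpr64Ab had 0 counts in wild type, 0, 1 and 2 in mutant 1 and 6, 5 and 5 in mutant 2. Cpr49Ah had 0 in wild type, 1, 2 and 9 in mutant 1 and 4, 8 and 1 in mutant 2, and Cpr51A had 0 in wild type, 1, 2 and 6 in mutant 1 and 7, 2 and 3 in mutant 2. Against 3 counts over the wild-type group, Cpr64Ab was 4.35-fold higher in mutant 2, and Cpr49Ah 3.29-fold and 3.53-fold higher in mutants 1 and 2. Cpr51A was 3.26-fold higher in mutant 2 by that measure. These ratios take the mutant counts as exact, so they are no lower limits. With no low-count filter Cpr64Ab, Cpr49Ah, Cpr51A and Cpr100A joined the calls of mutant 2 (edgeR adjusted p = 0.0184, 0.0487, 0.0397 and 0.0485). Cpr49Ah and Cpr78Cb joined those of mutant 1 (edgeR adjusted p = 0.0440 and 0.0211). In the other direction, Cpr50Cb had 2, 3 and 0 counts in wild-type ovary and 0 in all 6 mutant libraries. Cpr11A had 1, 2 and 4 in wild type and 1 each in both mutant groups. Neither was called.

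No member was called between the mutants. Compared directly, 0 members passed in mutant 2 against mutant 1 in brain or ovary by edgeR, and 0 by DESeq2. Of all genes, 0.0405% were called in brain (0.0202% higher and 0.0202% lower) and 0.012% in ovary, all higher. The ovary call was CG11247 itself (log2 1.27 ± 0.06, edgeR adjusted p = 7.9e-07), which was also called higher in brain (0.69 ± 0.06, 0.0074). At an unadjusted p under 0.05, edgeR gave 0 members in brain and 1 in ovary, Cpr92A, while of all genes 2.44% and 3.79% were under that limit. Cpr62Bc in brain had a log2 difference of 0.03 ± 0.10, Cpr56F 0.00 ± 0.14 and Cpr47Ef 0.13 ± 0.16, where 2 SE on either side of a value give its approximate interval.

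The mutant response was next compared between tissues, as the mean of both mutants against wild type in brain minus that in ovary. Over 10029 genes, 2.62% were called above 0 and 3.67% below 0, 6.29% in all. Among the 18 members tested 4 were called, all below 0. edgeR gave no usable SE for Cpr56F, Cpr47Ef, Cpr65Au, Cpr73D and Cpr30B, so these could not be called in either direction. The first 4 of them had 0 counts in wild-type ovary, and Cpr30B had 0 in brain. Cpr62Bb had a difference of -8.41 ± 0.74 on the log2 scale (edgeR adjusted p = 1.3e-05): it was not called in brain and rose from 0 counts in ovary. Cpr49Ag had -6.48 ± 1.28 (edgeR adjusted p = 0.0073), a call that was lost without brain wild-type library 1 (-4.44 ± 1.17, 0.0555), one of the libraries high in photoreceptor markers.

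Cpr92A and Cpr78Cb were nearer the threshold. Cpr92A, with 1 and 1 counts in wild-type brain, 0 and 0 in mutant 1 and 0 and 2 in mutant 2, had a difference of -6.31 ± 1.70 (edgeR adjusted p = 0.043). That call was lost in 11 of the 15 fits that left out 1 library (edgeR adjusted p up to 0.198). Cpr78Cb had 11 and 5, 5 and 7, and 3 and 4 counts in brain and 2, 0 and 1, then 4, 9 and 15, and 5, 6 and 10 in ovary, and a difference of -3.38 ± 0.92 (edgeR adjusted p = 0.043). In brain its wild-type and mutant 1 libraries overlapped and mutant 2 lay below both per depth, and in ovary every mutant library was above wild type. The call was lost in 11 of the 14 fits without 1 library that tested it (edgeR adjusted p up to 0.228), with no low-count filter (0.0604) and by DESeq2 (-3.46 ± 1.30, adjusted p = 0.0708). For Cpr62Bc, which rose in both tissues, the larger change in brain did not pass (4.73 ± 1.28, edgeR adjusted p = 0.059), but it did without ovary wild-type library 3 (5.39 ± 1.22, 0.0319).

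Cpr66D was close to silent in brain, with 5 and 0 counts in wild type, 1 and 2 in mutant 1 and 0 and 1 in mutant 2. Its difference between tissues was -5.72 ± 1.95 and did not pass (edgeR adjusted p = 0.105), but it did without ovary mutant 1 library 3 (-5.83 ± 1.44, 0.0305) and by DESeq2 (-5.85 ± 1.11, adjusted p = 8.0e-06). edgeR gave no usable SE for Cpr56F and Cpr47Ef, since they had 0 counts in all wild-type ovary libraries and at most 4 in the mutant ones together. Cpr47Ef had 2 counts in mutant 1 ovary and 0 in the other groups. In counts alone, the rise of both was seen in brain.

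**Figure D4:**
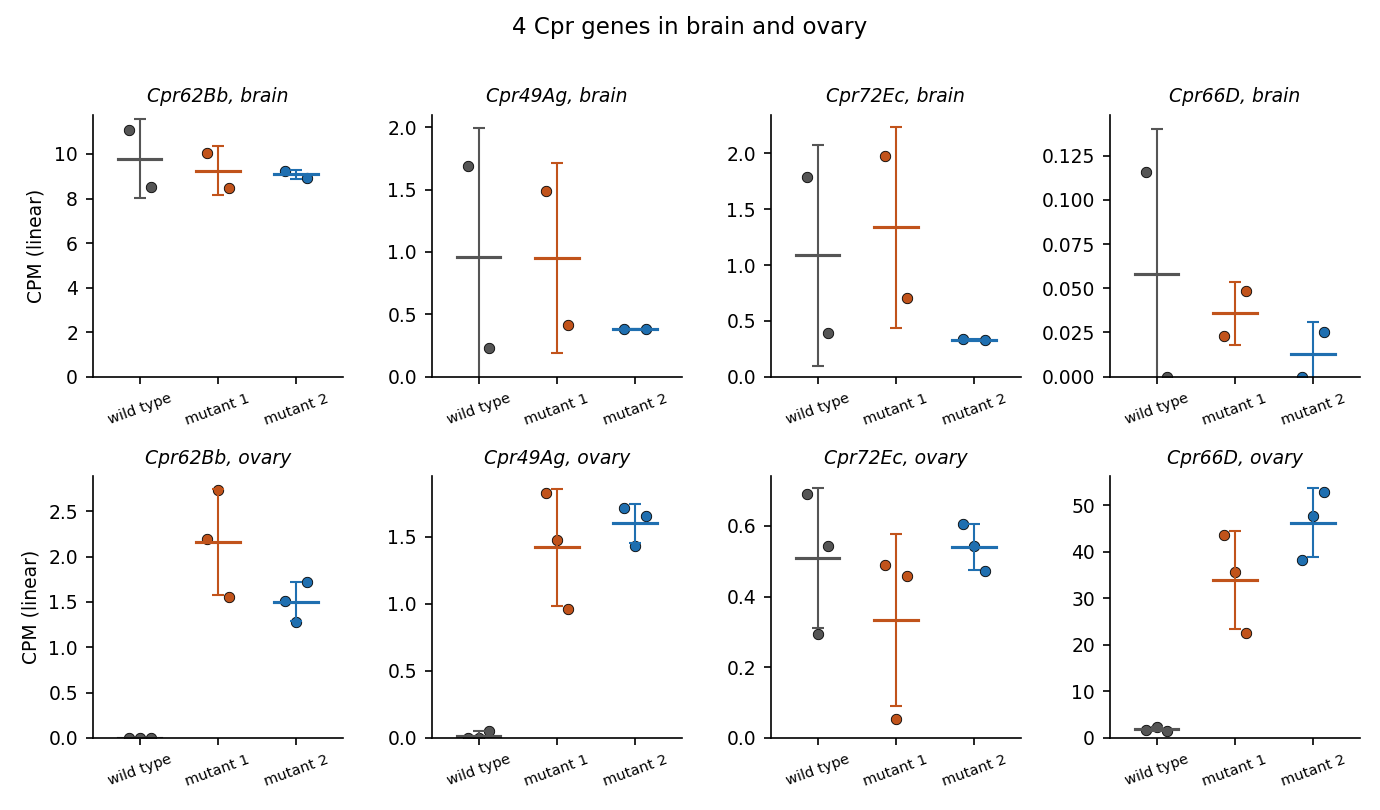
CPM on linear axes from 0, with scales that differ between panels, of Cpr62Bb, Cpr49Ag, Cpr72Ec and Cpr66D in brain (upper row) and ovary (lower row), with a point for each library, a bar for the group mean and whiskers for the SD, which end at 0 where they would pass below it. Cpr62Bb has means of 9.09 to 9.79 CPM in the brain groups and lies at 0 in wild-type ovary, and the 2 high brain libraries of Cpr49Ag and Cpr72Ec are wild-type library 1 and mutant 1 library 1.

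Between wild-type brain and wild-type ovary, 13 of the 18 members tested were higher in brain and 2 lower. In that comparison 46.8% of all 10029 genes were called higher and 42.8% lower, 89.5% in all, so a call says little. The members lower in brain were Cpr30B and Cpr66D (log2 -7.74 ± 1.05 and -4.31 ± 0.78, edgeR adjusted p = 1.8e-05 and 1.8e-04). Cpr62Bb was the member with the largest estimated difference, at 11.4 ± 0.50 (edgeR adjusted p = 5.9e-11). It had 0 counts in wild-type ovary, and Cpr30B had 0 in wild-type brain. The sizes and SEs of the differences of these genes are therefore uncertain. For Cpr78Cb, the call (2.05 ± 0.81, edgeR adjusted p = 0.027) was lost by DESeq2 (2.32 ± 1.14, adjusted p = 0.0546). It was also lost without ovary wild-type library 2 (edgeR adjusted p = 0.0902) or 3 (0.0788), and without brain wild-type library 1 the difference was 1.40. For Cpr72Ec, the call (1.70 ± 0.67, edgeR adjusted p = 0.026) was lost without brain wild-type library 1 (0.25 ± 0.77, 0.771) and without ovary wild-type library 2 (0.0843) or 3 (0.0565).

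In S2 cells no member was called at 24 h or 48 h of auxin. Of all 7152 genes tested there, 0.0979% were called at 24 h and 0.112% at 48 h, all higher. Only Cpr11A, Cpr49Ac, Cpr51A and Cpr97Eb had enough reads to test. S2 libraries read the 3′ end of mRNAs, so levels are not compared per kb. Cpr49Ac had 4 and 46 counts untreated, 5 and 58 at 24 h and 7 and 67 at 48 h, and Cpr51A had 2 and 10, 2 and 12, and 3 and 11. In each group of both genes replicate 2 was several times replicate 1, so the groups overlapped. Their log2 changes were 0.05 to 0.42 with SEs of 1.24 to 1.69 (edgeR adjusted p = 1.00 in each). This fit did not model the replicate number, by which the S2 libraries split on the first principal component, so it had little power. With the replicate number as a block, the SEs of Cpr49Ac were 0.44 and 0.43 at 24 h and 48 h. Of all genes 138 and 191 were then called, and still no member.

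Cpr97Eb had 22 and 13 counts untreated, 24 and 15 at 24 h and 37 and 19 at 48 h, with log2 changes of 0.04 ± 0.50 and 0.48 ± 0.49 (edgeR adjusted p = 1.00 for both). Cpr11A had 15 and 9 counts untreated, 10 and 5 at 24 h and 5 and 2 at 48 h. Its treated libraries at 48 h were below both untreated ones, and its log2 change of -1.93 ± 0.71 did not pass (edgeR adjusted p = 1.00). With an unadjusted edgeR p of 0.029, it was the 1 member of 4 under 0.05 at 48 h, and at 24 h there were 0. Of all genes, 2.13% were under that limit at 48 h and 2% at 24 h. DESeq2 called 0 members at either time. Cpr62Bc, called in both tissues, had 1 and 1 counts untreated, 0 and 0 at 24 h and 4 and 1 at 48 h. Cpr62Bb, Cpr56F and Cpr49Ag had no row in the S2 table.

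**Figure D5:**
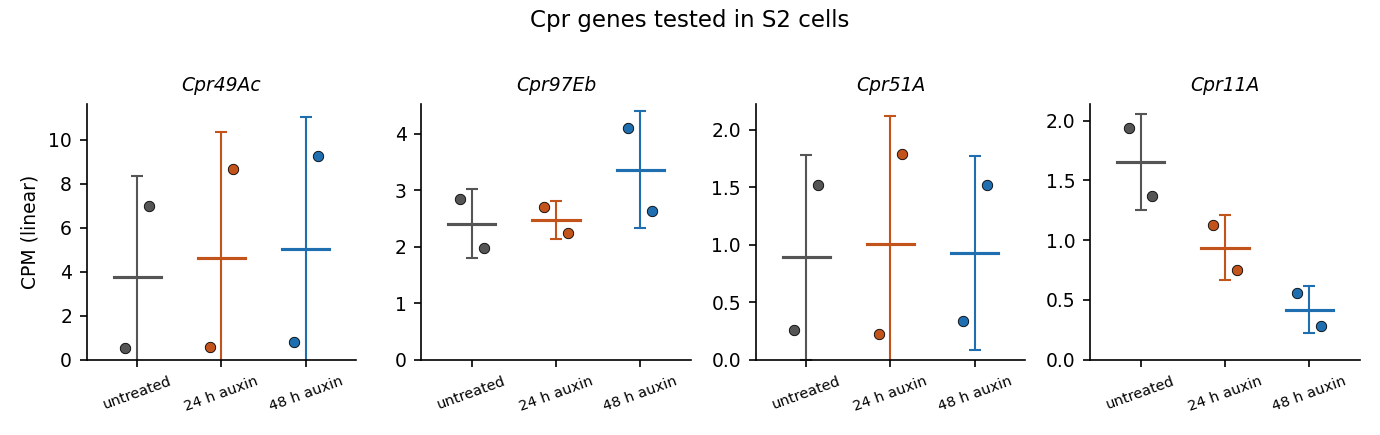
CPM on a linear axis from 0 of the 4 Cpr genes tested in S2 cells, with a point for each library in replicate order, a bar for the group mean and whiskers for the SD (n = 2), which end at 0 where they would pass below it. In the panels of Cpr49Ac and Cpr51A the second library of every group is the high one, and groups overlap.

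Other genes of cuticle formation, taken from lists of known genes, are given beside the members. These lists were chosen with earlier results of the data known, so their counts are a description and no independent support. Over all tested genes, 1.9% and 2.23% were called higher in mutants 1 and 2 in brain and 12.2% and 8.77% in ovary. The shares called lower were 0.759% and 0.729% in brain and 11.2% and 7.35% in ovary. The list of chitin synthesis and assembly also held Cht2, Cht5, Cht7 and Cht10, Idgf1 to Idgf6, snu, snsl and qsm. Its counts are thus not of chitin synthesis alone. Of its genes, 6 of 23 tested were higher in mutant 1 brain and 7 in mutant 2, with 0 lower (median log2 0.09 and 0.16, against -0.00 over all genes in both). In ovary 14 and 15 of 20 were higher and 1 lower (median 2.04 and 2.14, against 0.01 and 0.00). reb and exp, a gene pair required for chitin deposition, were among those higher in both tissues. kkv, the chitin synthase gene of epidermis, was at 0.866 ± 0.593 CPM in wild-type ovary and at 657 ± 13.1 and 661 ± 21.9 in the mutants (SD, n = 3; log2 9.50 ± 0.19 and 9.51 ± 0.19, edgeR adjusted p = 2.6e-11 and 2.5e-11). In brain kkv was at 0.516 ± 0.0743, 0.919 ± 0.343 and 1.15 ± 0.617 CPM (SD, n = 2) and was not called. In S2 cells 3 of 12 genes of that list were higher at each time, snu, qsm and rtv, while no Cpr gene was. Of all genes tested there, 0.0979% were called higher at 24 h and 0.112% at 48 h.

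Few genes of the other protein families of the cuticle had enough reads to be tested. Of 30 cuticle protein genes not named Cpr, 3 had enough reads in brain and none was called, and in ovary the 1 tested, Edg91, was higher (log2 6.69 ± 0.71 and 7.26 ± 0.69, edgeR adjusted p = 4.9e-05 and 1.7e-05). None of 25 Tweedle cuticle protein genes in the tissue tables was called, with 3 tested in brain and 0 in ovary. Of 12 chitin-binding peritrophin-type genes, 1 of 4 tested was higher in ovary, Gasp (2.11 ± 0.34 and 2.48 ± 0.34, edgeR adjusted p = 0.0015 and 4.6e-04), and 0 of 3 in brain. Among tanning genes 1 of 10 was higher in brain, yellow-e, and 3 of 7 in ovary, yellow-e, ple and Ddc. ple encodes tyrosine hydroxylase and Ddc dopa decarboxylase.

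Of 14 regulators of cuticle genes, grh and ovo were higher in brain in both mutants. grh encodes the transcription factor Grainy head, which acts in epidermis, and rose from 4.36 ± 0.267 CPM to 53.8 ± 0.0221 and 57.0 ± 2.43 in brain (SD, n = 2; log2 3.62 ± 0.07 and 3.71 ± 0.07, edgeR adjusted p = 1.6e-08 and 1.5e-08). In ovary grh and Blimp-1 were higher and br lower, of 12 tested. grh was at 0.333 ± 0.103 CPM in wild-type ovary and 3.73 ± 0.639 and 4.26 ± 0.265 in the mutants (SD, n = 3).

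Markers of other cell types were counted in the same libraries. Of 5 epidermis markers, grh, sha, f, sn and kkv, 2 were higher in both brain mutants, grh and f, and 4 in both ovary mutants, and grh and kkv belong to the lists above as well. In brain f was at 0.209 and 0.273 CPM in the wild-type libraries and at 16.0 to 19.7 in the mutant ones, and the ovary libraries held 0 to 0.138 CPM of sha in wild type against 242 to 267 in either mutant. Their summed level was 45.3 to 48.1 CPM in wild-type brain, 108 to 112 in mutant 1 and 117 to 119 in mutant 2. In ovary it was 267 to 278, 1201 to 1270 and 1173 to 1255 CPM, and no marker was at 0 in a whole group of either tissue. Mean grh was 0.333 CPM and kkv 0.866 in wild-type ovary, and sha at most 0.138. Nearly all of the wild-type ovary sum was thus f and sn, and it is not taken to measure epidermis. The markers sha, sn and kkv were not called in brain. Of 5 trachea markers, 4 were tested in each tissue. None was called in brain (summed 65.6 to 69.7 CPM over all groups). In ovary 2 were higher. The sum there was 15.3 to 17.2 CPM in wild-type libraries and 32.6 to 35.6 and 33.5 to 40.4 CPM in those of mutants 1 and 2, and dys was at 0 in wild type and in mutant 1. Hemocyte markers, 4 of 6 of which were lower in both brain mutants, summed to 805 to 894 CPM in wild type and 602 to 672 in the mutants. Follicle cell markers, 2 of 5 of which were lower in both ovary mutants, summed to 14443 to 16211 CPM in wild type and 7737 to 12407 in the mutants. Of 6 muscle markers tested in ovary, 0 were higher in mutant 1 and 3 in mutant 2, and their sum was 329 to 392 CPM in wild-type libraries, 443 to 464 in those of mutant 1 and 402 to 714 in those of mutant 2. Of 4 hemocyte markers tested in ovary, 1 was higher in mutant 2 and 0 in mutant 1. Genes of the fat body list, which includes the yolk protein genes Yp1, Yp2 and Yp3, were lower in both brain mutants for 2 of 8. In both ovary mutants 3 of 7 were lower, with 1 higher in mutant 1 ovary. In ovary that list is not taken to measure fat body. Germ-line markers were lower in both ovary mutants for 2 of 5, but their sum was not. It was 2617 to 2835 CPM in wild-type ovary libraries, 2800 to 2897 in those of mutant 1 and 2785 to 2866 in those of mutant 2. Of 3 spermatheca markers, 1 was tested in ovary, and it was higher in mutant 1 and not called in mutant 2. At 0 were 2 of them in wild-type ovary, 1 in mutant 1 and 0 in mutant 2. Their sum was 67.4 to 77.9 CPM in wild-type ovary libraries, 78.6 to 94.5 in those of mutant 1 and 82.4 to 87.2 in those of mutant 2. In brain it was 80.6 to 86.0 CPM over all groups, with none called. The part of any of these cells in the levels of the Cpr genes was not tested.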

How the data were processed

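For S2 cells the authors deposited unnormalized counts, 1 whole number per transcript and library, from 3′-end libraries read to 75 bp per the labels' protocols. For brain and ovary the authors deposited estimated counts by gene, and of these values 90.3% and 92.7% were whole within 1e-06. The submitters' processing notes name the build dm3, and for tissues Trim Galore 0.6.2 and Salmon 1.2.1. The tissue libraries were rRNA-depleted and made with a directional kit per the labels, but no source used here says if strand was used in counting. Gene names, lengths and positions came from the Ensembl annotation of BDGP6, which matched all 70 members, and no dm3 coordinate was used. S2 genes were represented by their isoform with the highest total.

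Estimated counts were rounded. Groups were compared with edgeR 4.0.16 (R 4.3.3; TMM, its low-count filter, robust quasi-likelihood F test, all groups of a table in 1 fit, Benjamini-Hochberg over all tested genes, adjusted p under 0.05). The SE is the absolute log2 change divided by the square root of F, and is unreliable near 0 counts. CPM used TMM-scaled library sizes. Ratios used summed counts with exact 95% intervals, which cover counting error only. Where wild type had 0, a floor of 3 counts over the group was used and the mutant count was taken as exact. Alternatives were DESeq2 1.42.0, RLE, no filter, isoform sums, the replicate number as a block, each library left out and, chosen after seeing the data, leaving out the brain or ovary libraries that stood apart. Replicate numbers were not taken to pair samples. The tests recovered known changes in simulated counts, planted only in genes with mean levels above those of most Cpr genes. Recovery at lower levels was not examined. Members, lists and tests were chosen with earlier results of these data known. Text names every Cpr gene called or at 1 CPM or more in a group, and up to 4 called genes per other list. Further members were named after their values were seen.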

Additional observations from a re-analysis of the deposited data

Results flagged for a closer look

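Of the Cpr genes, 4 had a mutant effect that differed between tissues in a direct test, as the mean effect of both mutants in brain minus that in ovary, on the log2 scale. The values were -8.41 ± 0.74 (SE) for Cpr62Bb, -6.48 ± 1.28 for Cpr49Ag, -6.31 ± 1.70 for Cpr92A and -3.38 ± 0.92 for Cpr78Cb, so the change was larger in ovary in each (edgeR adjusted p = 1.3e-05, 0.0073, 0.043 and 0.043). Cpr62Bb had 0 counts in wild-type ovary, so the size and SE of its difference are uncertain. The brain values of Cpr49Ag varied with the photoreceptor markers of single libraries, and Cpr92A and Cpr78Cb rest on few counts. The call of Cpr49Ag was lost without brain wild-type library 1, and with 1 library left out the calls of Cpr92A and Cpr78Cb were lost in 11 of 15 and 11 of 14 fits.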

How the results depend on the processing

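The counts of Cpr genes called in brain (4 higher, 0 lower), ovary (5 higher, 0 lower) and S2 cells (0) stayed within 1.5 times under DESeq2, RLE size factors, the replicate block and every left-out library, except that without a low-count filter mutant 2 ovary had 9 higher. With 1 library left out, the brain counts were 3 to 4 and the ovary counts 5 to 6. The brain-minus-ovary counts were less stable: DESeq2 called 2 members higher (Cpr56F, 9.66, and Cpr62Bc, 4.75) against 0, and 4 lower, with Cpr66D (-5.85) in place of Cpr78Cb (-3.46). The 4 lower became 2 without a low-count filter and 2 with the replicate block, where Cpr92A (-6.32 in both) and Cpr78Cb (-3.39 and -3.37) were lost. With 1 library left out, 0 to 1 were called higher and 1 to 4 lower. The cause of these moves was not tested. Silent members numbered 46 in brain and 46 in ovary by the 0.1 CPM limit, and 15 and 21 by 0 counts. In all 3 tables there were 32 by that limit, 8 by 0 counts and 49 under 0.5 CPM. Over all genes, S2 calls were 26 and 36 without a filter, 15 and 17 by DESeq2, 138 and 191 with the replicate block (edgeR adjusted p = 0.216 for Cpr11A at 48 h), and 1 to 6 and 3 to 9 with 1 library left out. Mutant 2 against mutant 1 gave 15 calls by DESeq2, 7 with the block and 56 without the 2 brain libraries high in photoreceptor markers, and in ovary 2 without a filter, 9 by DESeq2 and 18 without the 3 libraries that stand apart. Calls of mutant 2 ovary fell to 614 without those 3, and brain-minus-ovary calls rose to 1007 by DESeq2. Same-numbered libraries deviated from their group means with correlations of 0.587 to 0.719 in S2 cells (2 numbers only), 0.0454 to 0.192 in brain and -0.337 to 0.267 in ovary, and no label says that a number marks a shared batch, so the numbers were not taken as pairs. With the block, the S2 changes at 24 h and 48 h were 0.27 ± 0.44 and 0.44 ± 0.43 for Cpr49Ac and -0.81 ± 0.67 and -1.94 ± 0.77 for Cpr11A, and 0 members were called. Of single members, 0 turned in direction in a called value. Depth limits the silent members: in S2 cells, 3 counts in 2 libraries correspond to 0.185 to 0.209 CPM. Fits that left a group with 1 library assume that it varies like the others.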
